A study of Mus musculus with 9 samples.

Results

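The mRNAs of the small-subunit cytosolic ribosomal proteins were measured by poly(A)+ RNA-Seq in mouse embryonic fibroblasts (MEFs) with and without CRISPR activation aimed at Hnrnpk. A gene belonged to the set when its name had the form Rpsa or Rps followed by a number, with or without the endings a, a1, x, l or rt, and 33 of the 15184 genes in the deposited table met this rule. All 33 were listed with a value above 0 in every library, Rps27rt was not analysed here, and Fau, which encodes the remaining 40S protein, was handled as a partner gene because its name falls outside the rule. The study compared 3 groups of 3 libraries each, labelled Empty, SAM1 and SAM2. All MEFs came from wild-type E12.5 embryos and carried both components of the synergistic activation mediator (SAM), a catalytically dead Cas9 that recruits transcriptional activators to a promoter. The components were delivered by lentivirus, and transduced cells were selected with blasticidin and hygromycin. The Empty control carried a nontargeting guide by the study's account. For this guide and for sgHnrnpk2 its methods print the same sequence, and whether that is a misprint is not given. The SAM1 and SAM2 lines share the genotype label Hnrnpk_SAM, and the labels do not say which Hnrnpk guide each line carries. Nothing in the labels says that the libraries of a group came from separate cultures, so the p-values measure the spread between these libraries, which may be technical.

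The small ribosomal subunit, 40S, binds the mRNA and decodes it. Its proteins coat the 18S rRNA and fall into a head, which holds the mRNA entry and exit paths and the tRNA contacts, and a body with a platform. Their mRNAs are short, abundant and translated under mTOR control through a pyrimidine tract at the 5′ end (TOP mRNAs), and each protein is needed at about the same molar amount, so the set is usually made in step. Inherited loss of a single copy of several of these genes causes Diamond-Blackfan anaemia, a ribosomopathy of red cell precursors, and loss of RPS14 underlies the anaemia of the 5q- syndrome.

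Many members have processed pseudogenes, which decides how well short paired reads can be assigned to them. The coding sequence of each member was cut into stretches of the read length, 43 bases, and searched against the rest of the mouse genome (GRCm39). The share of stretches that occurred elsewhere was 11.1% for Rps3, 21.2% for Rps4l and 46.7% for Rps9. For members such as Rps6, Rps12, Rps13, Rps16, Rps23, Rps28, Rps29 and Rpsa every stretch occurred elsewhere, and Rps2 had the most copies, 60 loci with at least 90% identity over at least 50% of its coding length. How reads that fit several loci were counted is not given in the sources used here, so values of the duplicated members are uncertain in level, and in change where a copy is transcribed too. The paralogs within the set, in contrast, can be told apart. The first 120 bases of the coding sequences of each pair are shown, read 5′ to 3′ from the start codon, with capitals marking the letters that differ between the paralogs of a pair.
Rps27: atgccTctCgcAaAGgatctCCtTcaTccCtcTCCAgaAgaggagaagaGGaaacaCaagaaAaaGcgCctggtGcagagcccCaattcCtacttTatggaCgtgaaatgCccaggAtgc
Rps27l: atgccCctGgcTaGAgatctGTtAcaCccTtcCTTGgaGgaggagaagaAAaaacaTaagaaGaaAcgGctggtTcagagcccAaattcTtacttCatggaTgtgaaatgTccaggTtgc
Rps4x: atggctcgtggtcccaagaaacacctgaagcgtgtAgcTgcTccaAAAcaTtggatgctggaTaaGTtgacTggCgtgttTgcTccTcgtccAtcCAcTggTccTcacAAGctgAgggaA
Rps4l: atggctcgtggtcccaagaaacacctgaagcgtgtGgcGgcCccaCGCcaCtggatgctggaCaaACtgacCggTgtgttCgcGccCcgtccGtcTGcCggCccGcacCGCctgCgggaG
Rps27 and Rps27l differed at 60 of 252 coding bases (76.2% identity), and every 43-base stretch held at least 6 differences. Rps4x and Rps4l differed at 157 of 786 aligned bases (80.0% identity) and shared no 43-base stretch, although 35 stretches held 3 or fewer differences, the number of mismatches the aligner allowed.

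Sequencing depth was high for all members but Rps4l. In 8 libraries the normalized counts were whole multiples of the worth of a single read, which gave totals of 41759636 to 49026626 reads on the listed genes. All 8 fibroblast markers were at 2481 or more in every library, Col1a1, Col1a2, Col3a1 and Vim at 17426 or more. They did not move alike: over the pooled lines Dcn (-2.17), Pdgfra (-0.70) and Thy1 (-0.48) were lower, Pdgfrb was higher (0.74) and 4 did not pass. Their sum, mostly Col1a1 and Col1a2, ran from 639000 to 685100 in Empty, 546500 to 549400 in SAM1 and 700500 to 721000 in SAM2. The 3 endothelial markers summed to 266.4 to 325.3 in Empty, 556.3 to 629 in SAM2 and 4586 to 4964 in SAM1. Kdr made up nearly all of the SAM1 sum and was higher in SAM1 (4.48) and SAM2 (1.35). Pecam1 was higher in SAM1 (1.14) and did not pass in SAM2 (-0.105). Cdh5 did not pass in SAM1 (-0.26) and was lower in SAM2 (-0.63, limma adjusted p = 0.0083). Of the markers of other cell types Epcam, Krt18, Ptprc, Adgre1, Myod1, Myog and Sox10 were not among the listed genes, and several listed ones were higher. The neural marker Tubb3 was higher in SAM1 (1.57) and SAM2 (1.08). The blood marker Cd68 (0.50 and 0.60) and the muscle marker Des (0.62 and 1.81) were also higher in SAM1 and SAM2, and the epithelial pair Cdh1 and Krt8 summed to 42.06 to 50.13 in Empty, 110.1 to 112.6 in SAM1 and 42.65 to 52.42 in SAM2. The part of these differences in the results below was not tested. The targeted gene did not follow the labels. Hnrnpk stood at 25058, 26098 and 26164 in Empty, at 24102, 24045 and 23619 in the libraries labelled SAM1 (log2 fold change -0.11 ± 0.03 (SE), limma adjusted p = 0.00252, lower) and at 26608, 26859 and 26221 in the libraries labelled SAM2 (0.04 ± 0.03, adjusted p = 0.159), so every direction below is a difference between labelled groups and not one shown to follow higher Hnrnpk mRNA. The study reported Hnrnpk overexpression in its Hnrnpk SAM MEFs by qRT-PCR and Western blot. The RNA-Seq counts given here did not show this rise, and the reason was not tested. In such bulk samples fewer cells of a type and less RNA per cell cannot be told apart.

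Taken per kilobase of coding sequence, the normalized counts of the members spanned a wide range in Empty. Only the coding length was used, so reads from untranslated exons would raise members with short coding sequences most. The order between members is uncertain for this reason too. Rps21, a small platform protein with 249 coding bases, had the highest level at 81607 ± 5900 (SD, n = 3). Rps3 was also near the upper end at 50480 ± 4320, and its gap to Rps2 (33525 ± 2440) exceeded their SDs. From Rps2 down to Rps9 (28629 ± 1990) 6 members stood close together, with Rps12, Rps29, Rps15 and Rps14 between them at overlapping spreads. At the low end were Rps23, which sits at the decoding centre, at 4026 ± 77.7, Rps6, the substrate of the S6 kinases, at 2044 ± 47.1, and the intronless Rps4l at 95 ± 16.1. The proteins are incorporated in equal number, so the order was set beside the share of duplicated stretches in the plot of level against duplication. Across the 33 members Spearman's rho between level and duplicated share was -0.34, and it was -0.25 against the number of copies. These points share the same libraries and several share a chromosome. The levels per kilobase in Empty and in the lines ranked the members nearly alike, with rho of 0.98 against SAM1 and 0.98 against SAM2, and Rps21 ranked first and Rps4l last in all 3 groups.

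**Figure D1:**
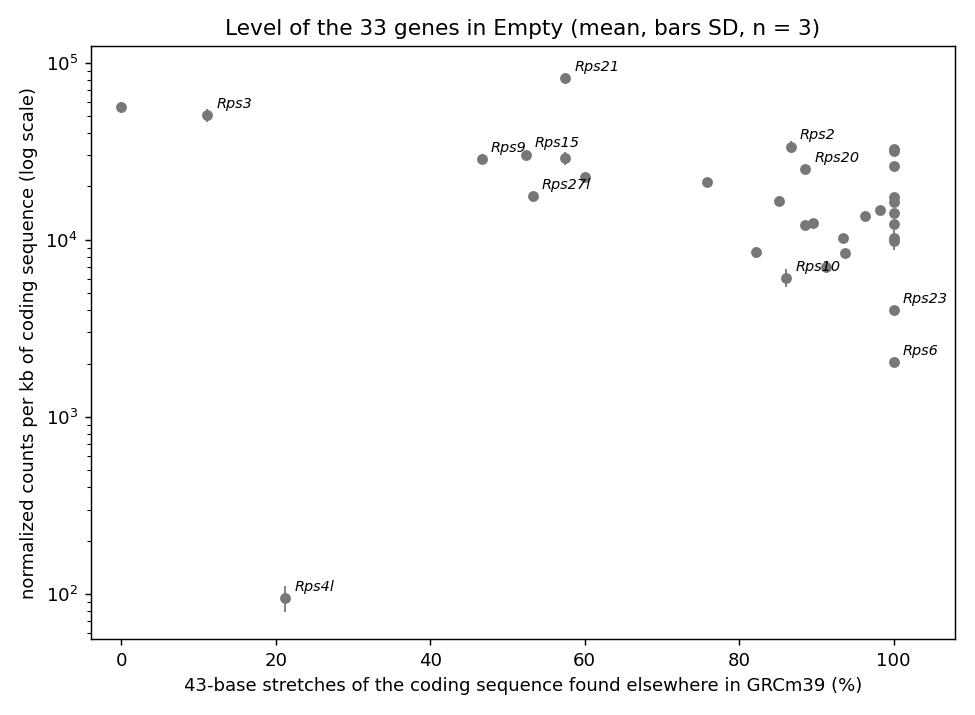
Mean normalized counts per kilobase of coding sequence in the 3 Empty libraries (log scale, bars SD) against the percentage of 43-base coding stretches found elsewhere in GRCm39, for the 33 genes. Rps3, with 11.1% of stretches duplicated, is among the 3 highest genes, and Rps6 and Rps23, with 100%, are among the 3 lowest.

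To determine whether the small-subunit mRNAs differed between the lines and the control, the 6 Hnrnpk SAM libraries were compared with the 3 Empty libraries on log2(normalized count + 1) with limma, with p-values adjusted over all 15184 genes. Of the 33 members, 15 were lower, 2 were higher and 16 did not pass. The lower members included Rps3, Rps7, Rps9, Rps12, Rps13, Rps15a, Rps16, Rps19, Rps20, Rps25, Rps27a and Rps27l, and the higher ones were Rps2 and Rps28. This contrast moved a large part of the transcriptome, since 27.0% of all genes were lower and 26.8% were higher, and the members' counts have to be read against these shares. The median log2 fold change was -0.18 over the members and 0.01 over all genes, and the split of 15 lower and 2 higher became 14 and 5 with quantile normalization and 12 and 6 when every library was scaled to the same total. The last of these shifted the median of all genes to 0.13, and the members' median stayed below 0 at -0.05. Of all 15184 genes, 8132 were called in either direction with quantile normalization and 8182 with equal totals. Leaving out the 9 libraries in turn gave 14 to 18 lower and 1 to 3 higher members, and the single higher member left without Empty replicate 1 or without Empty replicate 3 was Rps28, as Rps2 then had an adjusted p of 0.0928 or 0.0838. In 15 members all 6 Hnrnpk SAM libraries lay below all 3 Empty libraries, and in 2 members all 6 lay above, against 27.2% and 25.9% of all genes.

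The largest fall among the called members was in Rps20, a head protein and a Diamond-Blackfan anaemia gene. It stood at 8428, 9452 and 8973 in Empty, at 5381, 6087 and 5415 in SAM1 and at 6445, 6200 and 6151 in SAM2. All SAM libraries were below all control libraries, with a log2 fold change of -0.59 ± 0.07 (SE, adjusted p = 7.1e-05), so that the level fell by 33.6%.

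Rps9 and Rps3 form, with Rps2, the ring through which the mRNA enters the subunit. Rps9 was at 15718, 17952 and 16317 in Empty, at 11431, 13070 and 10982 in SAM1 and at 12697, 12946 and 12490 in SAM2, and fell by 0.44 ± 0.07 on the log2 scale (adjusted p = 0.000456). Rps3 was at 33911, 40154 and 36335 in Empty, at 26412, 29946 and 25051 in SAM1 and at 28226, 28946 and 28038 in SAM2, and fell by 0.40 ± 0.07 (adjusted p = 0.000888). Neither gene overlapped between SAM and control libraries. Rps2, the remaining ring protein, went the other way. It was at 27908, 31913 and 28584 in Empty, at 39974, 45126 and 39742 in SAM1 and at 32796, 34164 and 32844 in SAM2, with a log2 fold change of 0.34 ± 0.11 (adjusted p = 0.0241). All 6 SAM libraries exceeded the highest control, by a small margin in SAM2. Since 86.7% of the Rps2 stretches occur elsewhere, the listed Rps2 pseudogenes were examined too. Rps2-ps10 stood at 119 to 136 in Empty, 161 to 198 in SAM1 and 117 to 159 in SAM2, and was higher in SAM1 (0.52, adjusted p = 0.0017). Rps2-ps8, at 5.84 to 15.8, was higher over the pooled lines (0.75, adjusted p = 0.0166), and Rps2-ps7, at 15.8 to 30.3, did not pass (0.03, adjusted p = 0.915). All of them stood far below the Rps2 value in each library.

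Rps19, the gene most often mutated in Diamond-Blackfan anaemia and required for 18S rRNA maturation, was at 3430, 3762 and 3931 in Empty, 2688, 2967 and 2608 in SAM1 and 2789, 2924 and 2768 in SAM2. It was lower in all SAM libraries (-0.41 ± 0.06, adjusted p = 0.000229). Rps13, a body protein, was at 4118, 5143 and 4607 in Empty, 3089, 3751 and 3070 in SAM1 and 3552, 3625 and 3960 in SAM2. Its log2 fold change of -0.40 ± 0.10 (adjusted p = 0.00677) had the widest error among the lower members, and the highest SAM library stood close under the lowest control. Rps28, a small head protein at the mRNA exit, was the other higher member. It was at 5075, 5612 and 5445 in Empty, 6618, 7099 and 6154 in SAM1 and 6315, 6569 and 6402 in SAM2 (0.28 ± 0.05, adjusted p = 0.0014), with no overlap.

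**Figure D2:**
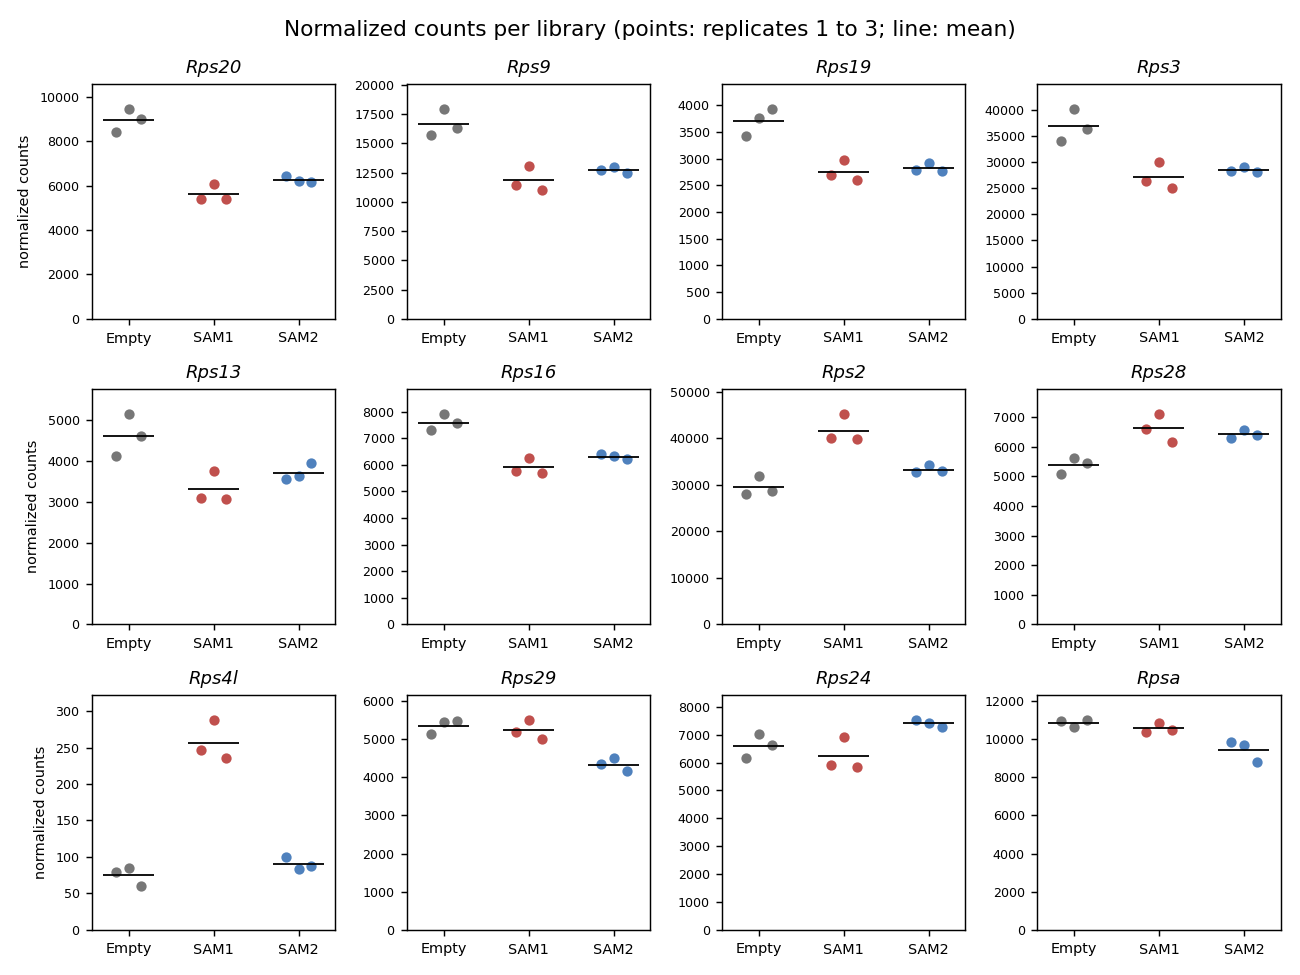
Normalized counts of 12 small-subunit genes in each library (points, replicates 1 to 3 from left to right) with the group mean (line), on axes that start at 0. Rps20, Rps9, Rps19, Rps3, Rps13 and Rps16 are lower in all 6 SAM libraries, Rps2 and Rps28 are higher, and Rps4l, Rps29, Rps24 and Rpsa differ between SAM1 and SAM2.

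Of the members that the study also followed by qRT-PCR, Rps3 and Rps9 are described above. Rps16, whose tail reaches the tRNA in the decoding site, was at 7302, 7896 and 7565 in Empty, 5748, 6257 and 5709 in SAM1 and 6388, 6330 and 6212 in SAM2 (-0.31 ± 0.05, adjusted p = 0.000519). Rps12, a protein of the beak of the head, was at 12065, 13601 and 12754 in Empty, 9900, 10937 and 9887 in SAM1 and 11048, 10972 and 10572 in SAM2 (-0.28 ± 0.05, adjusted p = 0.00199). Both were lower in all 6 SAM libraries. Rps21 did not pass over the pooled lines (-0.24 ± 0.10, adjusted p = 0.0613), but was called lower when the mean of the lines was tested, with the difference between the lines kept out of the residual spread (adjusted p = 0.00157). Its values of 18754, 21665 and 20542 in Empty overlapped those of 18084, 21017 and 17280 in SAM1, whereas the 15488, 16135 and 15706 in SAM2 lay below all of them.

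Of the remaining lower members Rps15a (-0.39) belongs to the body, Rps7 (-0.26) is a body protein known to bind the p53 ligase MDM2, Rps25 (-0.22) sits in the head, and Rps27a (-0.18) is made as a fusion with ubiquitin. Their adjusted p-values ran from 0.000582 for Rps15a to 0.022 for Rps27a. The calls of Rps25, Rps27a and Rps7 were lost under at least 1 of the processing alternatives, and the other 12 lower members kept theirs in all of them.

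Rps14 did not differ detectably. It was at 11918, 14118 and 13084 in Empty, 11957, 14086 and 11407 in SAM1 and 12036, 12284 and 12174 in SAM2. The difference of -0.08 had a 95% interval of -0.24 to 0.08, and its sign turned with quantile normalization (0.05) and with equal totals (0.04). Rps6, Rps10, Rps15, Rps18, Rps24, Rps26, Rps27 and Rps4x lay between -0.04 and 0.06 and did not pass, with 95% intervals that reached from -0.18 at the lowest to 0.26 at the highest. Rps23 (-0.11), Rpsa (-0.12), Rps29 (-0.17) and Rps3a1 (0.14) did not pass over the pooled lines either. Tested as the mean of the lines, Rps29 (adjusted p = 0.000794) and Rpsa (adjusted p = 0.0056) were called lower too, and the lower members then numbered 20. That test called more genes of every kind: 11323 of all 15184 in either direction, against 4103 lower and 4076 higher over the pooled lines. Several of the uncalled members, Rps6, Rps23, Rps27, Rps29 and Rpsa among them, have every stretch duplicated. The same holds for the called members Rps12, Rps13, Rps16, Rps27a and Rps28. Across the 33 members Spearman's rho between the pooled fold change and the duplicated share was 0.14.

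By position in the subunit, 8 of 14 head members were lower and 1 was higher, with a median log2 fold change of -0.23. Of 17 body and platform members 6 were lower and 1 was higher, with a median of -0.11. Of the 11 Diamond-Blackfan anaemia members, Rps7, Rps15a, Rps19 and Rps20 were lower, Rps28 was higher and 6 did not pass, with a median of -0.17. These shares stand beside the 27.0% and 26.8% of all genes given above, and the groups were not tested against each other. Among the 8 members with fewer than 60% of their stretches duplicated, 4 were lower and 4 did not pass, with a median of -0.26. The other 25 members gave 11 lower and 2 higher, with a median of -0.17.

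Within each pair of paralogs the calls differed in at least 1 comparison. Rps27 and Rps27l encode closely related zinc finger proteins, and Rps27l is known as a target of p53. Rps27l was at 4093, 4472 and 4741 in Empty, 3471, 3666 and 3314 in SAM1 and 3771, 3896 and 3642 in SAM2, lower in all SAM libraries (-0.29 ± 0.06, adjusted p = 0.00325). Rps27 was at 3691, 3378 and 3648 in Empty, 3228, 3478 and 3302 in SAM1 and 3687, 3817 and 3350 in SAM2, with overlapping groups (-0.04, 95% interval -0.18 to 0.10). Whether the paralogs differed from each other was not tested. The sequences shown above keep the reads of Rps27 apart from those of Rps27l, but not from the Rps27 pseudogenes.

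Rps4x and Rps4l formed the other pair. Rps4x, the X-linked gene, was at 6488, 6659 and 6658 in Empty, 6747, 7020 and 6649 in SAM1 and 7159, 7208 and 6626 in SAM2, and its difference of 0.06 did not pass (adjusted p = 0.203). It was called higher with quantile normalization (0.16, adjusted p = 0.0067) and with equal totals (0.19, adjusted p = 0.00299). Rps4l, an intronless copy on chromosome 6 (GRCm39 chr6:148256098-148257431, plus strand), was at 78.8, 85.1 and 60.7 in Empty and at 246, 288 and 236 in SAM1, and at 99.9, 83.5 and 88.1 in SAM2. All SAM1 libraries were thus more than 2 times the highest of the other 6 libraries, while SAM2 overlapped Empty. Its log2 fold change was 1.77 ± 0.13 in SAM1 (adjusted p = 4.59e-08) and 0.28 ± 0.13 in SAM2 (adjusted p = 0.0751), and the lines differed by -1.49 ± 0.13, SAM2 minus SAM1 (adjusted p = 6.29e-07). In SAM1 Rps4l reached 257 ± 27.7 (SD, n = 3) normalized counts, a small fraction of the 6805 ± 192 of Rps4x.

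The lines were then fitted separately, with all 9 libraries sharing the estimate of the spread; the comparisons with Empty use the same 3 control libraries. In SAM1, 15 members were lower and 4 higher, where 36.9% of all genes were lower and 37.3% higher. In SAM2, 20 members were lower and 3 higher, where 35.3% of all genes were lower and 35.2% higher. The members' median log2 fold change was -0.12 in SAM1 and -0.20 in SAM2, but the SAM1 median turned to 0.03 when every library was given the same total, which moved the median of all genes to 0.15. With quantile normalization the SAM1 medians were -0.05 over the members and -0.05 over all genes, and in SAM2 they were -0.15 and -0.03. The split in SAM1 became 14 lower and 7 higher with quantile normalization and 13 and 11 with equal totals, and in SAM2 it became 19 and 6 or 16 and 9. Over all genes 11218 and 11333 were then called in either direction in SAM1, and 10673 and 10686 in SAM2. Without Empty replicate 2 or without SAM1 replicate 2, the higher members in SAM2 numbered 5.

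**Figure D3:**
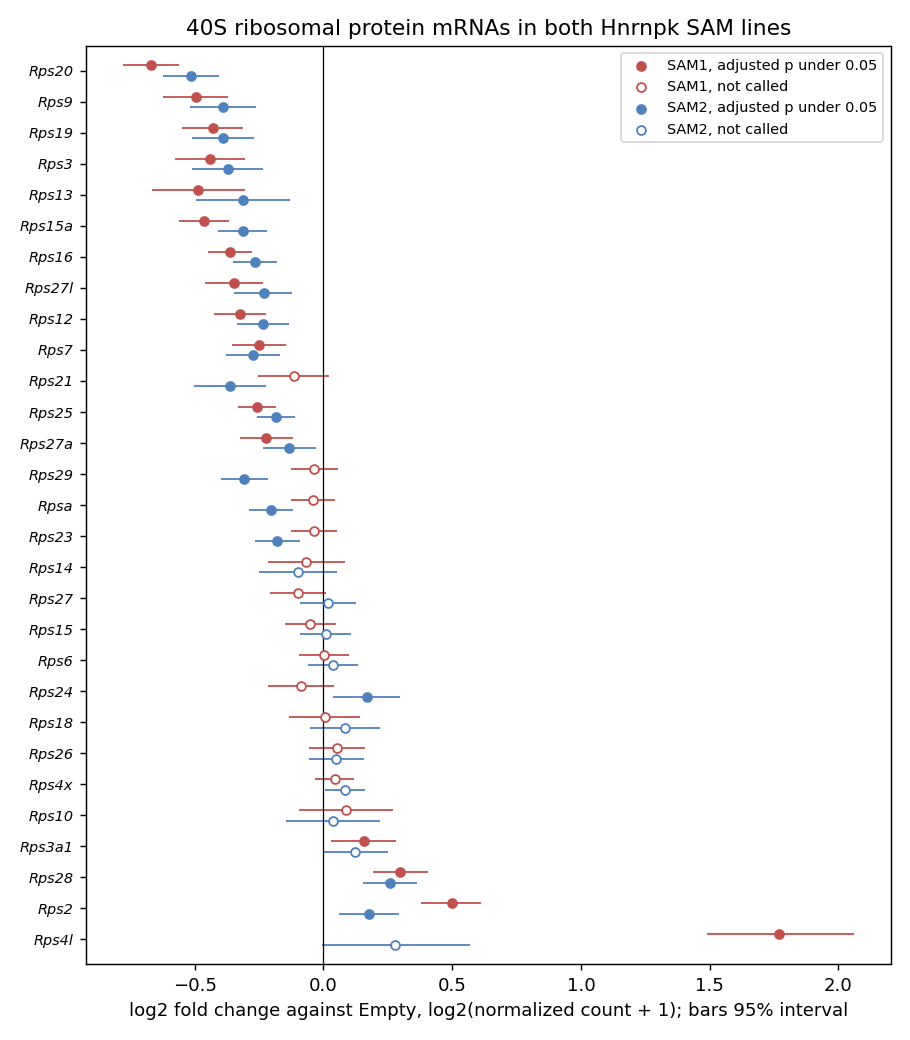
Log2 fold change of 29 of the 33 genes in SAM1 (red) and SAM2 (blue) against Empty, ordered by the difference over both lines; bars are 95% intervals and filled points have a limma adjusted p under 0.05. Rps20 lies at -0.67 and -0.51 at the top, Rps2 at 0.50 and 0.18 near the bottom, and Rps4l at 1.77 in SAM1 and 0.28 in SAM2.

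Compared directly, 6 members were lower and 6 were higher in SAM2 than in SAM1, where 29.2% of all genes were lower and 31.1% higher. The lower ones were Rps2, Rps21, Rps23, Rps29, Rpsa and Rps4l. The higher ones included Rps15a, Rps16, Rps20 and Rps24. The count of higher members was unstable. It was 3 with edgeR or DESeq2 on recovered reads, fits that left out SAM2 replicate 1, and 3 without a mean-variance trend. With quantile normalization it was 1 and with equal totals 2, and in each case the lower members stayed at 6. Over all genes 8995 were called in either direction with quantile normalization and 9169 with equal totals. In limma the higher count rose to 16 without SAM1 replicate 2. It dropped to 3 without SAM1 replicate 1, SAM1 replicate 3, SAM2 replicate 1 or SAM2 replicate 2. Only Rps24 among the higher members was called in every alternative, and of the lower members all but Rps23 were.

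Rps29, a zinc finger protein of the head, was at 5144, 5446 and 5466 in Empty, 5178, 5502 and 5003 in SAM1 and 4337, 4494 and 4160 in SAM2. SAM1 overlapped the control and SAM2 lay below both groups, with a difference between the lines of -0.27 ± 0.04 (adjusted p = 9.3e-05). Rpsa, the laminin receptor protein at the back of the platform, was at 10957, 10627 and 11014 in Empty, 10386, 10855 and 10470 in SAM1 and 9860, 9674 and 8817 in SAM2 (-0.16 ± 0.04 between the lines, adjusted p = 0.00293). Here too SAM2 alone was below every other library. Rps21, its neighbour on the platform, differed between the lines by -0.25 ± 0.06 (adjusted p = 0.00471), and Rps2 by -0.32 ± 0.05 (adjusted p = 0.000197).

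Rps24 had the opposite pattern. It was at 6173, 7014 and 6620 in Empty, 5929, 6933 and 5826 in SAM1 and 7532, 7421 and 7273 in SAM2, so that all SAM2 libraries exceeded the other 6. SAM2 was above SAM1 by 0.25 ± 0.06 (adjusted p = 0.00251). Against Empty the rise in SAM2 was 0.17 ± 0.06 (adjusted p = 0.023). This call was lost with edgeR and DESeq2 (adjusted p of 0.0798 and 0.0654), which left out SAM2 replicate 1. In limma it was lost without the trend, and without Empty replicate 1 or 3 or SAM2 replicate 1 (adjusted p = 0.0721) or 2. In the other 5 higher members both lines were below Empty and SAM1 was the further away. The differences between the lines ran from 0.10 for Rps16 (adjusted p = 0.048) to 0.16 for Rps20 (adjusted p = 0.0159).

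The spread within groups was shared across members. In SAM1 replicate 2 all 33 members lay above the mean of the SAM1 libraries, with a median deviation of 0.11 on the log2 scale, and in SAM1 replicates 1 and 3 only 2 and 1 did. In Empty replicate 2, 27 members were above the group mean and in Empty replicate 1, 5 were. In SAM2 replicate 2, 29 were above and in SAM2 replicate 3, 4 were, so that replicate 2 held the most members above the mean in every group. The median deviations ran from -0.08 in Empty replicate 1 to 0.11 in SAM1 replicate 2, while the medians of all genes lay between -0.01 and 0.01. The 48 large-subunit genes deviated in the same libraries, by 0.09 in SAM1 replicate 2 and -0.06 in Empty replicate 1, and so did 523 other short and abundant genes, those with under 500 coding bases and a mean above 1000, by 0.06 and -0.06. The part of this library-wide shift in the results was not tested. Rps4l had the widest spread, with a within-group SD of 0.19, and Rps10 and Rps13 were also at the wide end, each 0.14, against 0.04 for Rps25 at the narrow end. The median over the members was 0.08 and that over all genes 0.07.

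**Figure D4:**
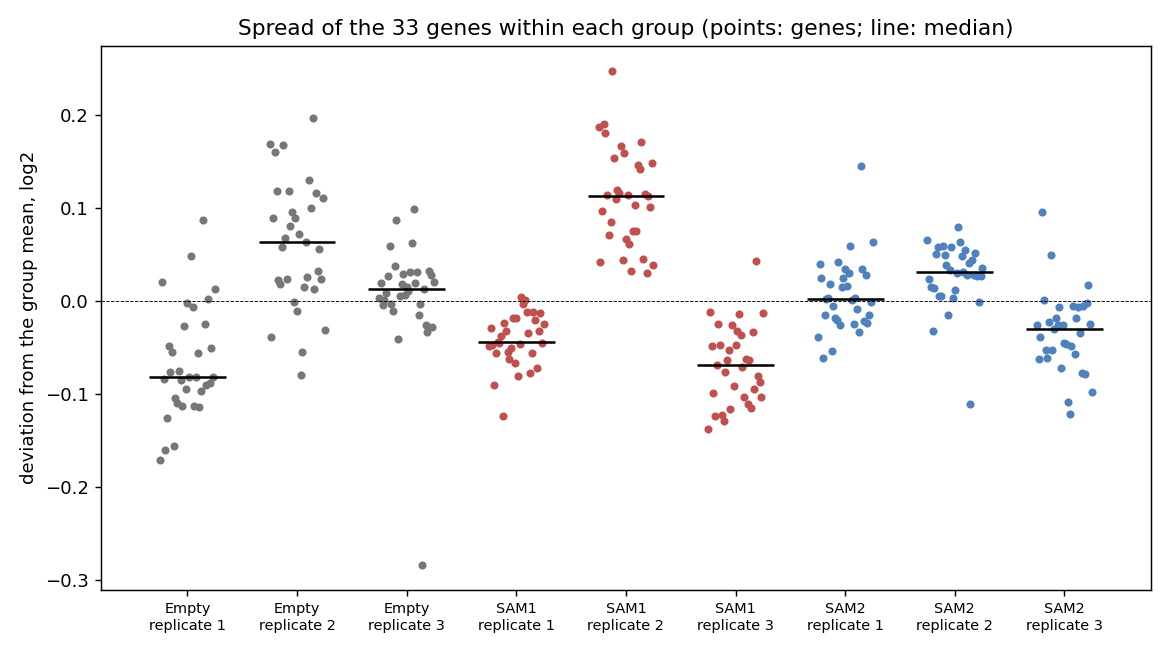
Deviation of each small-subunit gene (points) from the mean of its group in each library, in log2 units, with the median over the 33 genes (line). All 33 points of SAM1 replicate 2 lie above 0, and 31 and 32 of the 33 points of the other SAM1 replicates lie below it.

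The summed signal of the 33 members made up 0.610%, 0.684% and 0.648% of the normalized counts in Empty, 0.616%, 0.697% and 0.603% in SAM1 and 0.613%, 0.628% and 0.601% in SAM2. The means were 0.647% ± 0.037, 0.639% ± 0.0508 and 0.614% ± 0.0132 (SD, n = 3), and the groups overlapped. The sum of normalized counts over the members was 316030 ± 16900 in Empty, 282478 ± 20600 in SAM1 and 279032 ± 5690 in SAM2. The share and the sum differ because the total over all listed genes was itself lower in the lines, at 43909125 to 45489906 against 48686625 to 49041969 in Empty. The share of the library showed no separation, and the part of the scaling between libraries in the lower sum was not tested. With every library at the same total, 12 members were lower and 6 higher over the pooled lines. The counts were then 13 and 11 in SAM1 and 16 and 9 in SAM2. Over all 15184 genes this scaling gave 8182, 11333 and 10686 calls in either direction, with medians of 0.13, 0.15 and 0.10. The shares of all genes lower and higher under it are not given here, so these member counts have no matching background by direction.

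The chromosomal position of the members was compared next with their fold change, since it was not part of the rule. Chromosome 7 held 9 members, Rps3, Rps9, Rps13, Rps15a, Rps16 and Rps19 among them, spread over the chromosome from Rps9 (GRCm39 chr7:3706979-3710719) to Rps15a (chr7:117703595-117715454). Over the pooled lines 8 of them were lower and 1 did not pass, and their median was -0.40 on the log2 scale. Among the remaining 1076 listed genes of chromosome 7 the median was -0.24, and 45.6% were lower and 10.9% higher. The 24 members on other chromosomes gave 7 lower and 2 higher, with a median of -0.06. In SAM1 the chromosome 7 members had a median of -0.44 and their chromosome one of -0.26, and in SAM2 the values were -0.31 and -0.24.

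Both higher members lie on chromosome 17, Rps2 at chr17:24937080-24940904 and Rps28 at chr17:34034199-34043536, along with Rps10 and Rps18. The 729 other listed genes of chromosome 17 had a median of 0.15, with 14% lower and 36.8% higher. For each member the listed genes within 5 Mb of its start were taken as neighbours. Rps20 on chromosome 4 had 15 neighbours with a pooled median of -0.36, and its own value was -0.59. Rps2 and Rps28 had neighbour medians of 0.15 and 0.22, below their own values of 0.34 and 0.28. Rps24 on chromosome 14 had neighbours at 0.28, and the 512 other genes of that chromosome had a median of 0.55, far above the 0.04 of Rps24 itself. Rps14 had neighbours at 0.33 and a value of -0.08.

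Across the 33 members Spearman's rho between the fold change and that of the neighbours was 0.67 over the pooled lines, 0.67 in SAM1 and 0.69 in SAM2. Neighbouring members share neighbours, and all 3 values share the Empty libraries. The fold change was below the neighbour median for 22 members over the pooled lines. Whether the regional differences had a part in the members' differences was not tested, and DNA copy number was not analysed here. The study karyotyped its Hnrnpk SAM MEFs and reported more chromosomes and chromosomal abnormalities than in the control, and polyploid cells by flow cytometry. Its text does not name the chromosomes concerned, and a relation to the values here was not tested.

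**Figure D5:**
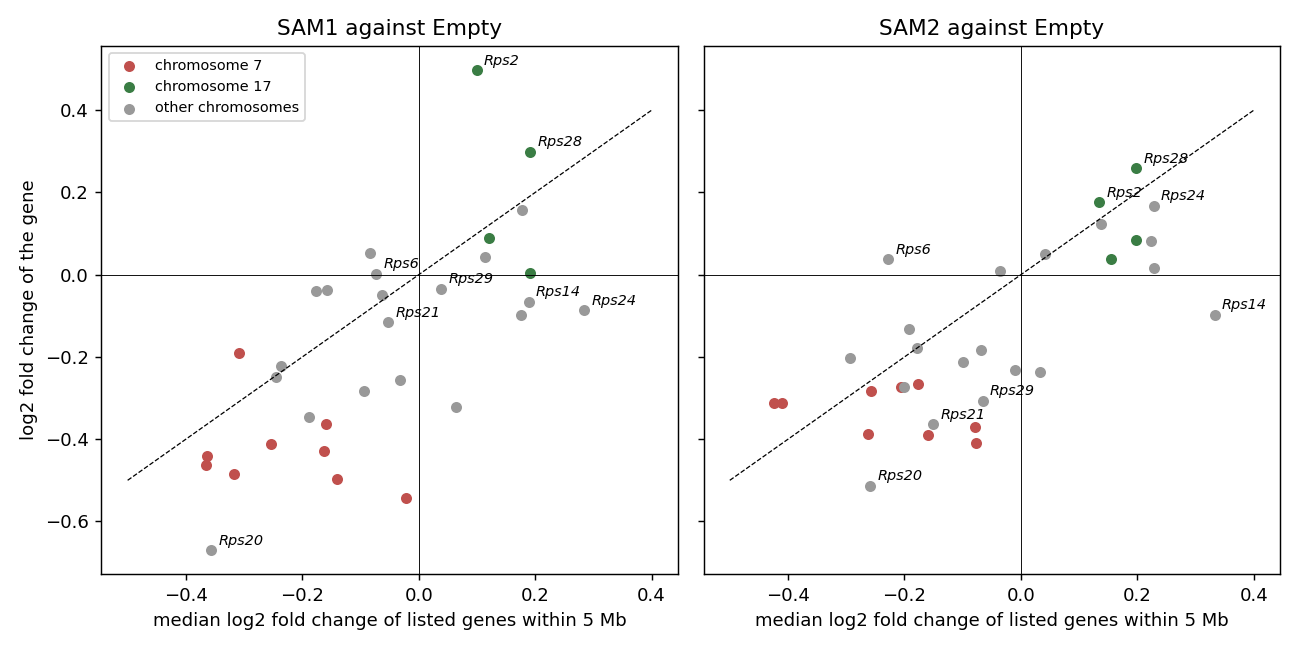
Log2 fold change of each small-subunit gene against the median log2 fold change of the listed genes within 5 Mb, for SAM1 (left) and SAM2 (right) against Empty; the dashed line marks equality and Rps4l is left out (1.77 and 0.28). The chromosome 7 genes (red) lie at the lower left, the chromosome 17 genes (green) at the upper right.

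Regulatory sequence around the start sites was examined because the members moved in different directions. Windows from 250 bases before to 50 bases after the annotated start (GENCODE vM39, canonical transcript) were searched on both strands. The ETS core CCGGAAG was found in 11 of 33 members (33.3%) and in 15.0% of 12999 listed protein-coding genes. The letters AAGATGGC, a core of YY1 sites, occurred in 2 members (6.1% against 3.4%), TATAAA in 5 (15.2% against 8.2%) and CTTTCC, letters of a pyrimidine tract, in 13 (39.4% against 27.8%). Of the 11 members with the ETS core 3 were lower and 1 was higher over the pooled lines. Of the 22 without it 12 were lower and 1 was higher. Over all genes 27.0% were lower and 26.8% higher, and members with and without the core were not tested against each other. A match is a description of letters and not a bound site. The 60-base stretches around the core are shown for Rps21, which was lower in SAM2, and for Rps2, which was higher, because the same letters lie before the annotated start of both, with the first base of the core at -30 and -172. They are written 5′ to 3′ on the gene's strand, with the core in capitals, from GRCm39 chr2:179899058-179899117 (plus strand) and chr17:24938884-24938943 (plus strand).
Rps21: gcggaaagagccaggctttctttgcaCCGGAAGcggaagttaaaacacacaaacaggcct
Rps2: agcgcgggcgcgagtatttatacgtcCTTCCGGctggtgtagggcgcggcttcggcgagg
In Rps2 the core lies on the opposite strand and reads CTTCCGG.

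The partner genes of the small subunit were counted from lists of known function. Fau, which encodes a ubiquitin-like protein fused to the last 40S protein, was at 5220, 5101 and 5258 in Empty, 4075, 4390 and 4094 in SAM1 and 4475, 4432 and 4225 in SAM2. It was lower in all SAM libraries (-0.28 ± 0.04, adjusted p = 0.000369). Rack1, the scaffold protein of the 40S head, was at 33183, 36469 and 34745 in Empty, 33535, 36212 and 32841 in SAM1 and 43158, 43462 and 42449 in SAM2. It overlapped Empty in SAM1 and was higher in SAM2 (0.31 ± 0.04, adjusted p = 1.4e-05). Of the 22 partners and late assembly factors 8 were lower, 4 were higher and 10 did not pass over the pooled lines, with a median of -0.01. In SAM1 11 were lower and 5 higher (median -0.12), and in SAM2 7 were lower and 9 higher (median 0.06). The smallest adjusted p-values belonged to Tsr1, an assembly GTPase relative (0.42), Pdcd2l (-0.52) and Bud23, the 18S rRNA methyltransferase (-0.35). Of all genes 27.0% were lower and 26.8% higher over the pooled lines, 36.9% and 37.3% in SAM1, and 35.3% and 35.2% in SAM2.

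A list of 16 genes was drawn up around the control of TOP mRNAs from the LARP family and the mTOR pathway. Not every gene on it is known to act on these mRNAs. Over the pooled lines 5 were lower and 4 were higher, with a median of -0.04. Larp4b (-0.35), Tsc2, a brake on mTOR (0.54), and Larp1b (0.70) had the smallest p-values. In SAM1 7 of the 16 were lower and 4 higher (median -0.09), and in SAM2 6 were lower and 7 higher (median 0.004). Larp1, which binds the pyrimidine tract, was itself higher over the pooled lines (0.39 ± 0.07, adjusted p = 0.00124). The 15 other TOP mRNAs gave 5 lower and 1 higher over the pooled lines, with a median of -0.03. Fitted separately, they gave 9 lower and 2 higher in SAM1 (median -0.20) and 5 lower and 5 higher in SAM2 (median 0.02). The smallest adjusted p-values were those of Eif3f (-0.38), Tpt1 (0.34) and Fau. All counts in this paragraph stand beside 27.0% of all genes lower and 26.8% higher over the pooled lines. The shares were 36.9% and 37.3% in SAM1 and 35.3% and 35.2% in SAM2. Among 14 listed genes of 40S quality control 2 were lower over the pooled lines, Riok3 (-0.19) and Rnf14 (-0.11), and 2 were higher, of which Usp21 (0.24) had the smallest p-value. The median was 0.02. Fitted separately, these genes gave 6 lower and 3 higher in SAM1 (median -0.003) and 2 lower and 7 higher in SAM2 (median 0.13).

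The 48 large-subunit genes were the set most like the members. Over the pooled lines 22 were lower, 7 were higher and 19 did not pass, with a median of -0.14 beside the -0.18 of the small subunit. Rplp1 (-0.52), Rpl31 (-0.64) and Rpl34 (-0.42) had the smallest p-values. Between the lines the large-subunit genes gave 4 lower and 20 higher in SAM2 than in SAM1, against 6 and 6 of the small subunit, whose higher count moved between 3 and 16 when single libraries were left out. The medians between the lines were close, 0.07 for the large and 0.06 for the small subunit. Of 29 mitochondrial small-subunit genes 12 were lower and 7 were higher over the pooled lines, with a median of -0.09, led by Mrps23 (-0.57), Mrps9 (-0.65) and Mrps14 (-0.47). Of the 523 short and abundant genes outside the ribosome 40.5% were lower and 18.2% were higher, with a median of -0.12. Of all genes 27.0% were lower and 26.8% higher over the pooled lines, and 29.2% and 31.1% in SAM2 against SAM1. The small subunit was not tested against these sets.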

How the data were processed

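Total RNA of 9 MEF samples was converted to directional poly(A)+ libraries and read as 43-base pairs. Per the labels and methods, the authors checked reads with FastQC 0.11.0, aligned them to GRCm39 with TopHat2, Bowtie2 and SAMtools (3 mismatches and 20 multihits allowed), counted genes of GENCODE vM29 with HTSeq and normalized with DESeq2. The deposited signal values are these normalized counts, kept for genes above 10 in at least 30% of libraries, which all 15184 listed genes met. The labels gave each library's group and number.

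Values were analysed as log2(normalized count + 1) with limma 3.58.1 (R 4.3.3), empirical Bayes with a trend, Benjamini-Hochberg adjustment over all genes and a threshold of 0.05; a gene is called lower or higher past it. Because the values are normalized counts and not raw counts, count models were alternatives: in 8 libraries 100% of values were within 0.1 of a whole read, and these reads entered edgeR 4.0.16 and DESeq2 1.42.0. SAM2 replicate 1, whose step is close to 1, was left out there. Fold changes on the log2(value + 1) scale understate low genes. Scripts were tested on simulated data. Positions, coding lengths and sequences came from GENCODE vM39 (GRCm39), in which 14791 of the listed names occurred once; for Rps12, Rps19, Rps24 and Rps29 the longest CCDS coding sequence replaced the canonical one.

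Members called lower and higher by the largest change in Hnrnpk SAM (up to 6 each), the 5 members with the smallest adjusted p between the lines, the qRT-PCR genes of the study, Rps14, Rps19, the paralogs, the 3 genes of each other list with the smallest adjusted p, Fau, Rack1 and Hnrnpk were named; Larp1 and the Rps2 pseudogenes were chosen after their values were seen. Some members enter the counts but are not reported by name here. The members and lists were chosen with earlier results of these data known. The labels do not say whether replicate numbers pair the libraries. Over all genes the deviations of same-numbered libraries correlated at 0.00 to 0.12 (mean 0.05). Those of libraries with different numbers correlated at -0.12 to 0.05 (mean -0.03). Whether same-numbered libraries shared a batch was not tested. Alternatives were other pseudocounts (0.1, 10), filters (above 10 in every library, mean above 100), quantile normalization, equal totals, no trend, a replicate block, count models and leaving out each library.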

Additional observations from a re-analysis of the deposited data

Results flagged for a closer look

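Members whose difference from Empty was not the same in both lines, by the direct test of SAM2 against SAM1 (limma, adjusted over all genes), include those below, given with the log2 difference, SAM2 minus SAM1. The differences were -1.49 for Rps4l, -0.32 for Rps2, -0.27 for Rps29, -0.25 for Rps21 and -0.16 for Rpsa. They were 0.25 for Rps24, 0.16 for Rps20 and 0.10 for Rps16. Rps23 (-0.14) and Rps15a (0.15) also differed. In Rps4l the 3 SAM1 libraries stood at 236 normalized counts or more and the others at 99.9 or less, with a within-group SD of 0.19 on the log2 scale. In Rps29, Rpsa and Rps21 all SAM2 libraries lay below all others. The small differences of Rps16 and Rps20 were lost under several alternatives, and all members of SAM1 replicate 2 were shifted upward, whose part in these differences was not tested.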

How the results depend on the processing

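The counts of lower members stayed within 1.5 times under every alternative. Higher members moved with the scaling. Over the pooled lines they went from 2 to 5 with quantile normalization, 6 with equal totals and 4 with the mean of the lines. With the mean of the lines the lower members went from 15 to 20, and 11323 of all 15184 genes were called in either direction, against 4103 lower and 4076 higher as reported. With quantile normalization and equal totals, the higher members went from 4 to 7 and 11 in SAM1 and from 3 to 6 and 9 in SAM2. Between the lines the 6 higher members became 1 with quantile normalization, 2 with equal totals, and 3 each without a trend, with edgeR and with DESeq2. The edgeR and DESeq2 fits left out SAM2 replicate 1, and limma without that library also gave 3. With a replicate block the higher members between the lines became 12, and those in SAM2 became 6. The block leaves fewer residual degrees of freedom, and the labels do not say whether the numbers pair the libraries. These values are therefore given only here. Leaving out each library gave 1 to 3 higher members over the pooled lines, 2 to 5 in SAM2 and 3 to 16 between the lines. The cause was not tested.

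Among the named members, 1289 of the alternative values kept direction and side of the threshold, 29 lost a call, 44 gained a call and 24 changed sign. The signs turned in members without a call as reported, and with equal totals Rps29 and Rpsa then passed as higher in SAM1 (adjusted p of 0.0406 and 0.0341). With quantile normalization the values became, in Hnrnpk SAM, 0.0536 for Rps14; in SAM1, 0.0682 for Rps29, 0.0344 for Rps24, 0.0858 for Rpsa, 0.067 for Rps21 and 0.0941 for Rps14; in SAM2, 0.013 for Rps14; and between the lines, -0.0211 for Rps19 and -0.0125 for Rps4x. With equal totals they became, in Hnrnpk SAM, 0.00158 for Rpsa, 0.0419 for Rps14 and 0.0823 for Rps27; in SAM1, 0.108 for Rps29, 0.0559 for Rps24, 0.102 for Rpsa, 0.027 for Rps21, 0.0768 for Rps14 and 0.0438 for Rps27; and in SAM2, 0.00691 for Rps14. Leaving out libraries ranged Rps24 in Hnrnpk SAM from -0.00668 to 0.0854 and Rps27 in SAM2 from -0.0226 to 0.0717. Between the lines Rps28 ranged from -0.0926 to 0.0104 and Rps14 from -0.0934 to 0.0587. Depth limits Rps4l most, at 60.7 to 288 normalized counts; copies elsewhere in the genome limit how far the levels of the others can be read.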
